A study of Mus musculus with 10 samples.

Results

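Wnt proteins are secreted, lipid-modified ligands that bind a Frizzled receptor together with the co-receptor Lrp5 or Lrp6. Binding stops the destruction of beta-catenin, which then enters the nucleus and acts on target genes through the TCF/LEF factors. R-spondins keep Frizzled receptors at the cell surface, whereas the Sfrp, Dkk, Wif1 and Notum proteins hold the signal down outside the cell. In skin the pathway is known for starting hair follicle formation, for the switch of resting follicles to growth, and for the identity of the dermal papilla, the cluster of fibroblasts at the follicle base.

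The genes described here were 47 mouse genes of this pathway, taken by name from a count table of 47729 genes. They were 15 Wnt ligands, 4 R-spondins, 12 receptors (10 Frizzleds, Lrp5 and Lrp6), 11 secreted inhibitors and 5 nuclear or target genes. RNA was sequenced from whole skin of 10 male C57BL/6 mice, an inbred laboratory strain, with 5 mice at 24 months and 5 at 9 months per the sample labels. No treatment or transgene was recorded for either age. The series' own design note lists the younger age as 2 months, and the labels' 9 months is used here. Each library was labelled as a separate sample, and nothing in the labels states body site, hair cycle stage, litter or extraction day. Replicate numbers below are names only, and values listed for an age run over replicates 1 to 5.

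Levels are CPM, read counts scaled to a common library size after TMM normalization, a correction for differences in RNA composition. Libraries held 31.6 to 40.8 M counted reads at 24 months and 29.3 to 56.0 M at 9 months. Markers of basal epidermis summed to 4780 to 9330 CPM at 24 months and 5950 to 8700 CPM at 9 months. Those of skeletal muscle summed to 24600 to 42700 CPM at 24 months and 18300 to 51700 CPM at 9 months, so muscle RNA was present too. Certain libraries stood apart within their age. The 17 genes of growing hair shaft and inner root sheath summed to 38.7 to 119 CPM at 24 months and to 45.5, 382, 297, 11400 and 33200 CPM at 9 months. Replicates 4 and 5 at 9 months were also highest in markers of the hair matrix, melanocytes and the cell cycle. The 9 dermal fibroblast markers summed to 1910, 1320, 6590, 5100 and 7340 CPM at 24 months, against 8320 to 12000 CPM at 9 months, and 24-month replicates 1 and 2 were the lowest of the 10 libraries. The 24-month replicate 1 was also high in 9 white adipocyte markers, which summed to 14500 CPM there, 1720 to 3600 CPM in the other 24-month mice and 2120 to 4130 CPM at 9 months. Its 5 B cell markers summed to 295 CPM, against 10.8 to 77.8 CPM in the other 24-month mice and 7.05 to 25.3 CPM at 9 months. This library was the lowest of the 10 in 35.6% of the tested Wnt pathway genes and in 12% of all genes tested. The part of these differences in the results was not tested.

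Of the 47 genes, 45 had enough reads to be tested and 38 of those 45 (84.4%) had a negative log2 fold change at 24 over 9 months, against 51.6% of all 17668 genes tested. The median log2 fold change was -0.47 for the 45 genes and -0.01 for all genes. The quasi-likelihood F test of edgeR, Benjamini-Hochberg adjusted over all genes, called none of the 45, in either direction, at an adjusted p under 0.05, and it called 0% of all genes. The smallest adjusted p among the 45 was 0.142, for Notum. At an unadjusted p under 0.05, 17 of the 45 (37.8%) were lower and 0 were higher, where 6.45% of all genes were lower and 6.62% higher. limma-voom called 0 of the 45 and 0% of all genes. DESeq2, run on the same counts, called 6 genes lower and 0 higher, against 2.32% of all its genes lower and 2.09% higher. The 6 were Notum, Wif1, Lef1, Rspo4, Fzd2 and Wnt5a. In whole tissue, fewer cells of a type and less RNA per cell cannot be told apart.

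Leaving out 9-month replicates 4 and 5 left 36 of the 45 genes with a negative fold change, a median of -0.32, and 5 genes lower at an unadjusted p under 0.05 in edgeR (11.1%, against 4.14% of all genes), with 0 higher (4.65% of all genes). Leaving out 24-month replicates 1 and 2 gave 35 negative, a median of -0.38, 7 lower (15.6%, against 3.62% of all genes) and 1 higher, Wnt10a (4.96% of all genes). Of the 17 genes, 4 were still lower at that level without the 9-month pair (Notum, Fzd2, Fzd8 and Wnt4), and Dkk2 was the fifth. Without the 24-month pair 7 of the 17 still were (Notum, Fzd2, Fzd8, Wif1, Dkk3, Rspo4 and Lef1). The unadjusted result of Wnt5a, Wnt5b, Wnt9a, Wnt11, Fzd1, Fzd5, Sfrp1, Frzb and Corin was lost whichever pair was left out. DESeq2 called only Notum of the 45 without 9-month replicates 4 and 5, where 0.218% of all genes were called lower, and only Notum again without 24-month replicates 1 and 2, where 0.969% were.

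**Figure D1:**
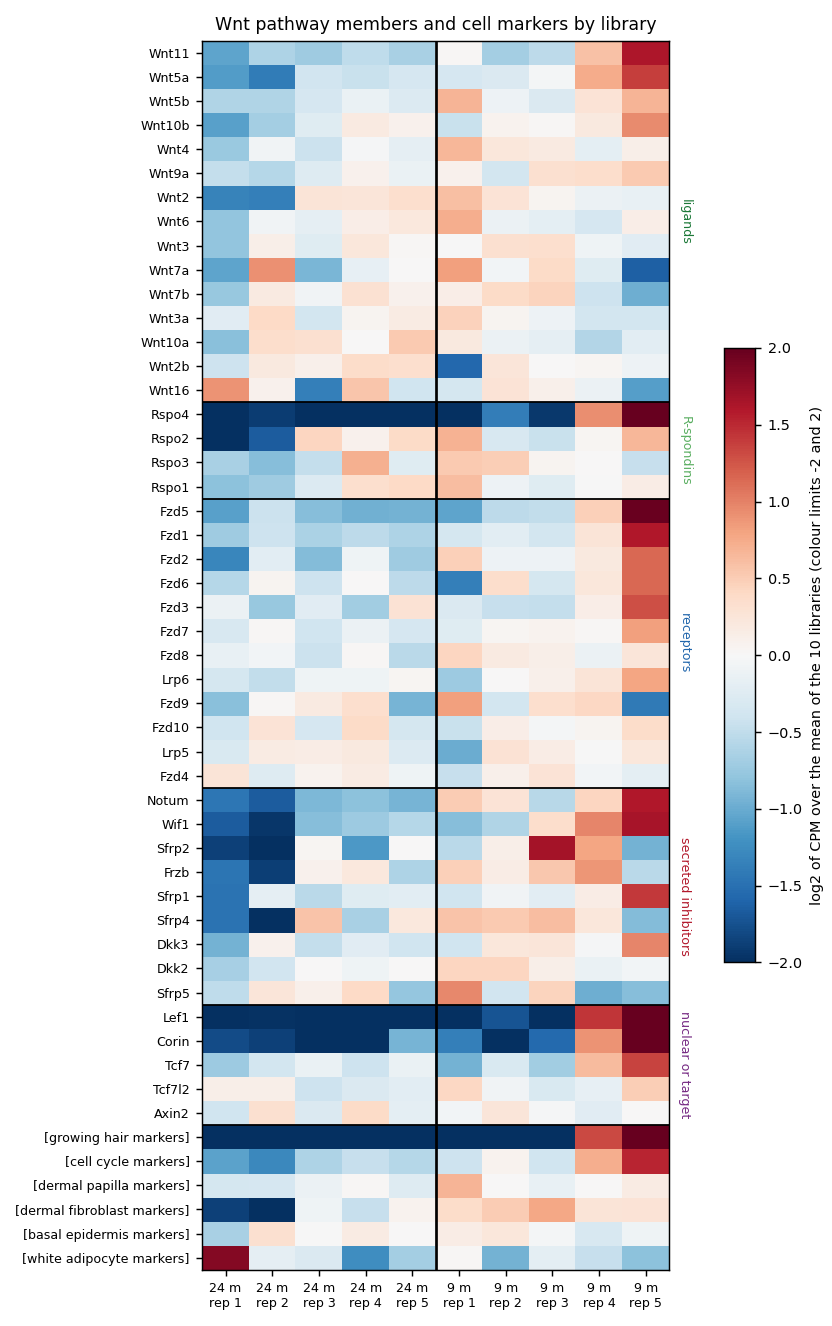
Level of each tested Wnt pathway gene (rows, by role) and summed level of 6 marker lists (bottom rows) in each library (columns, 24 months left, 9 months right), as log2 of CPM over the mean of the 10 libraries, with the colour scale limited to -2 and 2. The growing hair markers are high in 9-month replicates 4 and 5, where Lef1, Corin, Rspo4 and Fzd5 are also high, and the dermal fibroblast markers are low in 24-month replicates 1 and 2, where Sfrp2, Sfrp4 and Frzb are also low.

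The secreted inhibitors had the lowest median log2 fold change of any role, -0.81, and all 9 tested inhibitors had a negative value. Of these 9, 5 were lower at an unadjusted p under 0.05, as were 6.45% of all genes. With replicates 4 and 5 at 9 months left out, the median was -0.80 with 2 lower (22.2%, against 4.14% of all genes). Without 24-month replicates 1 and 2 it was -0.65 with 3 lower (33.3%, against 3.62% of all genes). Summed over the 11 genes, the length-scaled level was 31.3, 47.5, 67.3, 62.7 and 60.4 CPM per kb of exon at 24 months and 80.3, 75.3, 106, 88.7 and 111 CPM per kb at 9 months. All 24-month sums lay below all 9-month sums, whereas in every other role the sums of the 2 ages overlapped. The dermal fibroblast marker sums were also separate, with at most 7340 CPM at 24 months and at least 8320 CPM at 9 months. Only 3 of those 9 markers, the collagen genes Col1a1, Col1a2 and Col3a1, were themselves separate between ages. The mean log2 level of the list overlapped, at 8.77 in 24-month replicates 3 and 5 and 8.76 in 9-month replicate 4. A link between the inhibitor sums and the fibroblast marker sums was not tested.

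Notum is a secreted enzyme that removes the lipid from Wnt proteins and so inactivates them. It lies on chromosome 11 (GRCm38, 120653788 to 120661175, minus strand). Its level was 0.899, 0.757, 1.35, 1.43 and 1.32 CPM at 24 months and 3.77, 3.19, 1.75, 3.55 and 8.11 CPM at 9 months, so the ages did not overlap. An exact two-sided permutation test of the mean log2 levels gave p = 0.00794, the smallest that 5 against 5 allows. Any gene without overlap gets this p, so it adds nothing to the lack of overlap. The Notum levels rest on 28 to 55 reads a library at 24 months and 67 to 466 reads at 9 months. The log2 fold change was -1.82 ± 0.38 (SE, edgeR adjusted p = 0.142). DESeq2 gave -1.84 with an adjusted p of 0.00026. With the 9-month pair left out, the edgeR value was -1.33, and without 24-month replicates 1 and 2 it was -1.58. An antisense gene, Notumos, overlaps the exons of Notum and averaged 12.2 reads against 109.1 for Notum. Whether counting used the strand is not given in the sources used here, so reads of the pair cannot be told apart with certainty.

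Wif1, which binds Wnt proteins outside the cell, lies on chromosome 10 (121033960 to 121100650, plus strand). It had 3.92, 3.22, 6.94, 7.57 and 8.44 CPM at 24 months and 6.98, 8.28, 16.2, 24.9 and 39.8 CPM at 9 months. The ages overlapped only between the highest 24-month libraries and the lowest 9-month ones, and 9-month replicates 4 and 5 were the highest of all. The fitted log2 fold change was -1.68 ± 0.47 (SE, edgeR adjusted p = 0.164), and DESeq2's adjusted p was 0.011. Without 9-month replicates 4 and 5 it was -0.80, with an edgeR unadjusted p of 0.0554.

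The Sfrp proteins and Frzb carry a domain like that of the Frizzled receptors and bind Wnt proteins with it. Sfrp1 was the most abundant inhibitor per length, with 14.3 ± 4.31 CPM per kb at 24 months and 25.1 ± 15.6 CPM per kb at 9 months (SD, n = 5 each). Its CPM were 31.0, 76.0, 59.5, 72.4 and 74.3 at 24 months and 65.4, 82.1, 74.3, 95.7 and 230 at 9 months. The ages overlapped, and 9-month replicate 5 was far above the rest. Between ages, the log2 fold change was -0.81 ± 0.36 (SE, edgeR adjusted p = 0.362), and -0.24 without 9-month replicates 4 and 5. Frzb had 7.58, 5.62, 22.4, 24.5 and 13.7 CPM at 24 months and 29.2, 23.3, 30.8, 39.1 and 14.4 CPM at 9 months. Its lowest values were in 24-month replicates 1 and 2, and the log2 fold change of -0.89 ± 0.40 (SE, edgeR adjusted p = 0.374) became -0.44 without them.

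Sfrp2 and Sfrp4 varied widely between mice of one age. Sfrp2 had 5.78, 1.16, 22.0, 9.64 and 21.5 CPM at 24 months and 14.7, 23.3, 67.8, 37.2 and 11.1 CPM at 9 months. Its log2 fold change of -1.36 ± 0.71 (SE) did not pass at an unadjusted level (edgeR adjusted p = 0.456), and was -0.80 without 24-month replicates 1 and 2. Sfrp4 ranged from 6.24 to 47.9 CPM at 24 months and from 17.6 to 49.7 CPM at 9 months, and its log2 fold change of -0.69 was -0.18 without 24-month replicates 1 and 2. In both genes those 2 libraries, low in fibroblast markers, were the lowest of the 10. Sfrp5 had 15.9, 26.8, 24.1, 29.8 and 13.2 CPM at 24 months and 43.8, 17.3, 30.7, 11.4 and 12.4 CPM at 9 months, with wide overlap and a log2 fold change of -0.07 ± 0.38 (SE), or -0.48 without 9-month replicates 4 and 5.

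Dkk proteins bind the Lrp co-receptors, apart from Dkk3, whose action on Wnt signalling is less clear. Dkk3 had 12.7, 26.2, 17.7, 21.1 and 18.7 CPM at 24 months and 18.6, 28.9, 29.0, 24.3 and 48.7 CPM at 9 months. The ages overlapped and the log2 fold change was -0.64 ± 0.26 (SE, edgeR adjusted p = 0.313), or -0.41 without 9-month replicates 4 and 5. Dkk2 ranged from 8.57 to 13.7 CPM at 24 months and from 12.5 to 18.5 CPM at 9 months, with a log2 fold change of -0.38 ± 0.18 (SE), or -0.55 without the 9-month pair (unadjusted p = 0.0201) and -0.20 without the 24-month pair. Dkk1 and Dkk4 were too low to test. No 24-month library held a Dkk1 read, against 1 read in each of 2 libraries at 9 months, and Dkk4 had at most 1 read in any library. Both ages were under a floor of 3 reads a library, so no fold is given.

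**Figure D2:**
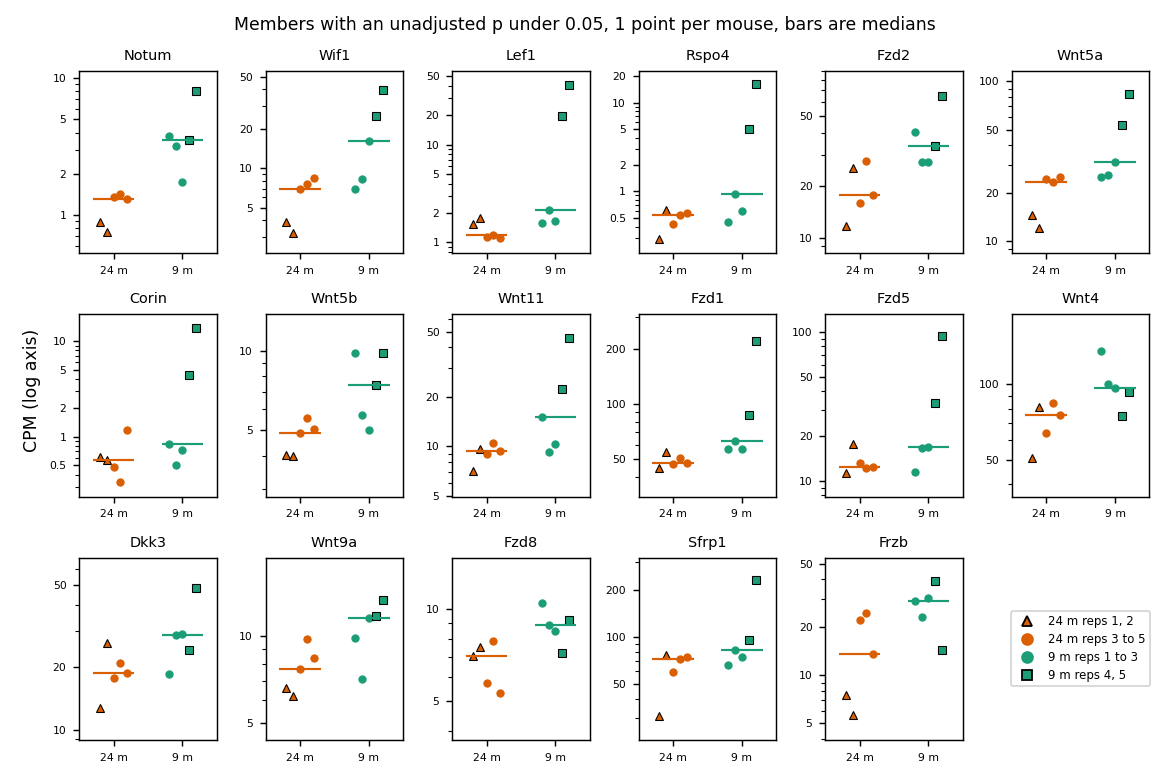
CPM (log axis) of the 17 Wnt pathway genes with an unadjusted edgeR p under 0.05, 1 point per mouse with the median as a bar, 24 months left and 9 months right in each panel. Triangles are 24-month replicates 1 and 2 and squares are 9-month replicates 4 and 5. In Notum, Wnt5a and Fzd1 no 24-month point reaches a 9-month point, whereas in Lef1, Rspo4 and Corin the squares alone stand far above the rest.

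Over the 15 Wnt ligands the median log2 fold change was -0.20. Of these, 11 were negative and 5 (against 6.45% of all genes) were lower at an unadjusted p under 0.05, namely Wnt5a, Wnt5b, Wnt11, Wnt4 and Wnt9a. With replicates 4 and 5 at 9 months left out, only Wnt4 was lower at that level (6.67%, against 4.14% of all genes, median -0.32). Without 24-month replicates 1 and 2 there were 0 lower (3.62% of all genes) and 1 higher (4.96% of all genes), with a median of -0.07. Wnt5a, Wnt5b and Wnt11 are best known for signalling that does not use beta-catenin.

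Wnt5a lies on chromosome 14 (28504750 to 28527448, plus strand). It had 14.7, 12.1, 24.4, 23.5 and 25.2 CPM at 24 months and 25.3, 26.1, 31.2, 53.3 and 83.4 CPM at 9 months. No 24-month library reached the lowest 9-month library, although 25.2 and 25.3 nearly met. As for Notum, the lack of overlap alone sets the p of the exact two-sided permutation test at 0.00794. The log2 fold change was -1.13 ± 0.35 (SE, edgeR adjusted p = 0.191). DESeq2's adjusted p was 0.0419. With the 9-month pair left out, edgeR's log2 fold change was -0.46 with an unadjusted p of 0.0911, and DESeq2's adjusted p was 0.623.

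Wnt5b had 4.01, 4.0, 4.86, 5.57 and 5.05 CPM at 24 months and 9.84, 5.72, 4.99, 7.42 and 9.85 CPM at 9 months. Here 9-month replicate 1 was as high as replicate 5, and the log2 fold change of -0.69 ± 0.23 (SE, edgeR adjusted p = 0.217) was -0.55 without the 9-month pair (unadjusted p = 0.0604) and -0.55 without the 24-month pair (unadjusted p = 0.0677). Wnt11 had 7.06, 9.60, 8.96, 10.4 and 9.37 CPM at 24 months and 15.1, 9.21, 10.3, 22.2 and 45.6 CPM at 9 months. The 24-month values lay close together and the 9-month ones spread widely. For this gene the log2 fold change was -1.17 ± 0.39 (SE, edgeR adjusted p = 0.218), -0.64 without 9-month replicate 5 and -0.35 without replicates 4 and 5.

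Wnt4, a ligand also needed for kidney and ovary development, was the most abundant ligand per length, with 17.0 ± 3.27 CPM per kb at 24 months and 23.9 ± 5.34 CPM per kb at 9 months (SD, n = 5 each). Its CPM were 51.1, 81.5, 63.9, 84.4 and 75.2 at 24 months and 136, 100, 96.7, 74.6 and 93.0 at 9 months. In contrast to Wnt11, its highest 9-month libraries were replicates 1 to 3. The fitted log2 fold change was -0.49 ± 0.18 (SE, edgeR adjusted p = 0.261), and -0.65 without 9-month replicates 4 and 5 (unadjusted p = 0.00715). Without 24-month replicates 1 and 2 it was -0.43, with an unadjusted p of 0.0575. Wnt9a had 6.61, 6.22, 7.71, 9.80 and 8.41 CPM at 24 months and 9.84, 7.11, 11.6, 11.8 and 13.4 CPM at 9 months (log2 fold change -0.47 ± 0.20, SE, edgeR adjusted p = 0.342). It was -0.30 without the 9-month pair (unadjusted p = 0.208) and -0.32 without the 24-month pair (unadjusted p = 0.192).

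Wnt3, Wnt10a and Wnt10b are ligands of the epidermis and hair follicle that act through beta-catenin, and none had an unadjusted p under 0.05. Wnt3 had 28.0, 52.7, 41.0, 56.5 and 49.3 CPM at 24 months and 48.0, 60.8, 61.4, 45.6 and 41.5 CPM at 9 months. Its log2 fold change was -0.18 ± 0.19 (SE, edgeR adjusted p = 0.759), or -0.32 without the 9-month pair and -0.07 without the 24-month pair. Wnt10a, whose human counterpart is mutated in disorders of hair, teeth and sweat glands, had 20, 45.6, 44.5, 36.0 and 51.2 CPM at 24 months and 41.1, 33.1, 31.5, 23.7 and 30.9 CPM at 9 months. For this gene the log2 fold change was 0.30 ± 0.23 (SE, edgeR adjusted p = 0.65). Without 24-month replicates 1 and 2 the value was 0.45 with an unadjusted p of 0.041, and without 9-month replicates 4 and 5 it was 0.16. Wnt10b, a ligand that can drive resting follicles into growth, had 5.11, 6.81, 9.24, 12.5 and 11.6 CPM at 24 months and 8.0, 11.5, 11.1, 12.6 and 21.2 CPM at 9 months (log2 fold change -0.51 ± 0.30, SE, edgeR adjusted p = 0.515). It was -0.17 without the 9-month pair and -0.21 without the 24-month pair.

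The other ligands overlapped between ages. Wnt7b ranged from 34.6 to 72.2 CPM at 24 months and from 29.7 to 80.0 CPM at 9 months, with its lowest 9-month values in replicates 4 and 5, and Wnt3a ranged from 7.71 to 13.1 CPM at 24 months and from 7.70 to 13.7 CPM at 9 months. Wnt2 had 2.34 and 2.30 CPM in 24-month replicates 1 and 2 and 7.20 to 7.72 CPM in the other 24-month libraries, against 5.45 to 9.24 CPM at 9 months. Wnt6, Wnt2b, Wnt16 and Wnt7a had log2 fold changes of -0.20, 0.31, 0.32 and -0.11. Without 9-month replicates 4 and 5 these were -0.31, 0.40, 0.12 and -0.53. Some ligand genes are neighbours in the genome. Wnt6 and Wnt10a lie 6.19 kb apart on chromosome 1 on the same strand, with -0.20 and 0.30, and Wnt3a and Wnt9a lie 16.2 kb apart on chromosome 11 on opposite strands, with 0.06 and -0.47.

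All 4 R-spondins, which act through the Lgr receptors, had a negative log2 fold change, and only Rspo4 had an unadjusted p under 0.05. Rspo4, whose human counterpart is needed for nail formation, lies on chromosome 2 (151842927 to 151874668, plus strand). It had 0.289, 0.622, 0.426, 0.544 and 0.577 CPM at 24 months and 0.458, 0.931, 0.601, 5.00 and 16.4 CPM at 9 months. Replicates 4 and 5 held 190 and 943 reads, whereas the other 8 libraries of either age held 9 to 28. Between ages, the log2 fold change was -3.25 ± 0.93 (SE, edgeR adjusted p = 0.167; DESeq2 adjusted p = 0.0179). It was -1.83 without 9-month replicate 5 and -0.43 without replicates 4 and 5, where DESeq2's adjusted p was 0.778.

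Rspo1 was the most abundant R-spondin per length, with 5.02 ± 1.95 CPM per kb at 24 months and 5.94 ± 1.46 CPM per kb at 9 months (SD, n = 5 each). Its CPM were 6.00, 6.43, 8.81, 13.5 and 14.0 at 24 months and 16.3, 9.90, 9.01, 10.6 and 11.8 at 9 months. Rspo3 had 5.04, 4.41, 5.71, 13.1 and 6.73 CPM at 24 months and 11.6, 11.3, 8.28, 8.0 and 5.81 CPM at 9 months. Rspo2 had 0.128, 0.270, 1.48, 1.14 and 1.42 CPM at 24 months and 1.80, 0.831, 0.757, 1.10 and 1.76 CPM at 9 months. In these 3 genes 24-month replicates 1 and 2 were the lowest libraries, and the log2 fold changes of -0.24, -0.36 and -0.48 for Rspo1, Rspo3 and Rspo2 had edgeR adjusted p of 0.77, 0.687 and 0.771. Without those libraries the values for Rspo1, Rspo3 and Rspo2 were 0.07, -0.08 and 0.10.

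Among the 12 receptors 10 had a negative log2 fold change, with a median of -0.41. At an unadjusted p under 0.05, 4 (against 6.45% of all genes) were lower, namely Fzd1, Fzd2, Fzd5 and Fzd8. With replicates 4 and 5 at 9 months left out, 7 receptors were negative and 5 positive, and the median was -0.10. Then 2 were lower, Fzd2 and Fzd8 (16.7%, against 4.14% of all genes). Without 24-month replicates 1 and 2 the same 2 were lower (16.7%, against 3.62% of all genes) and the median was -0.43. Fzd2 lies on chromosome 11 (102604396 to 102608058, plus strand). It had 11.8, 25.3, 16.0, 27.6 and 17.8 CPM at 24 months and 40.5, 27.3, 27.3, 33.5 and 64.8 CPM at 9 months. Only 1 of the 24-month libraries, replicate 4, reached the range at 9 months. The log2 fold change was -0.97 ± 0.29 (SE, edgeR adjusted p = 0.177). DESeq2's adjusted p was 0.0372. The fold change was -0.69 without 9-month replicates 4 and 5 (unadjusted p = 0.0299) and -0.92 without 24-month replicates 1 and 2 (unadjusted p = 0.0181).

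Fzd1 had 44.7, 54.8, 47.3, 50.9 and 47.7 CPM at 24 months and 57.1, 63.0, 56.6, 87.2 and 221 CPM at 9 months. The ages did not overlap, but all but 2 of the 9-month libraries lay near the 24-month range. The fitted log2 fold change was -0.98 ± 0.35 (SE, edgeR adjusted p = 0.25), -0.43 without 9-month replicate 5 and -0.27 without replicates 4 and 5. With Notum and Wnt5a, it was 1 of 3 genes of the 45 (6.67%) in which all 24-month libraries were below all 9-month ones, against 1.23% of all genes. No gene of the 45 had all 24-month libraries above, against 1.66% of all genes. Fzd5 had 11.2, 17.7, 13.2, 12.2 and 12.4 CPM at 24 months and 11.5, 16.7, 17.0, 33.3 and 94.1 CPM at 9 months. Its log2 fold change of -1.37 ± 0.50 (SE, edgeR adjusted p = 0.259) was -0.56 without 9-month replicate 5 and -0.18 without replicates 4 and 5.

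Fzd8 had 7.03, 7.51, 5.73, 7.88 and 5.34 CPM at 24 months and 10.5, 8.84, 8.46, 7.18 and 9.23 CPM at 9 months. Its 9-month replicates 4 and 5 did not stand apart. Between ages, the log2 fold change was small, -0.40 ± 0.17 (SE, edgeR adjusted p = 0.351), and was -0.47 and -0.48 without the 9-month and the 24-month library pair. Fzd7 had 63.3, 80.4, 60.0, 72.6 and 62.5 CPM at 24 months and 66.7, 81.3, 82.9, 80.1 and 140 CPM at 9 months (log2 fold change -0.41 ± 0.19, SE, edgeR adjusted p = 0.385). It was -0.19 without 9-month replicates 4 and 5.

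Fzd4, the receptor of the vascular ligand Norrin as well as of Wnt proteins, was the most abundant of the 47 genes per length. It had 27.3 ± 3.73 CPM per kb at 24 months and 25.7 ± 4.94 CPM per kb at 9 months (SD, n = 5 each). Its CPM were 213, 149, 187, 199 and 168 at 24 months and 130, 192, 216, 172 and 155 at 9 months. The log2 fold change was 0.08 ± 0.16 (SE, edgeR adjusted p = 0.882). The co-receptor Lrp5 ranged from 87.1 to 122 CPM at 24 months and from 53.5 to 131 CPM at 9 months (log2 fold change 0.01). Lrp6 ranged from 102 to 146 CPM at 24 months and from 86.0 to 246 CPM at 9 months (log2 fold change -0.35, or -0.03 without 9-month replicates 4 and 5). Fzd10, Fzd3, Fzd6 and Fzd9 had log2 fold changes of -0.08, -0.48, -0.51 and -0.30, and the ages overlapped in each. With the 9-month pair left out, the values were 0.05, 0.16, 0.03 and -0.51.

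**Figure D3:**
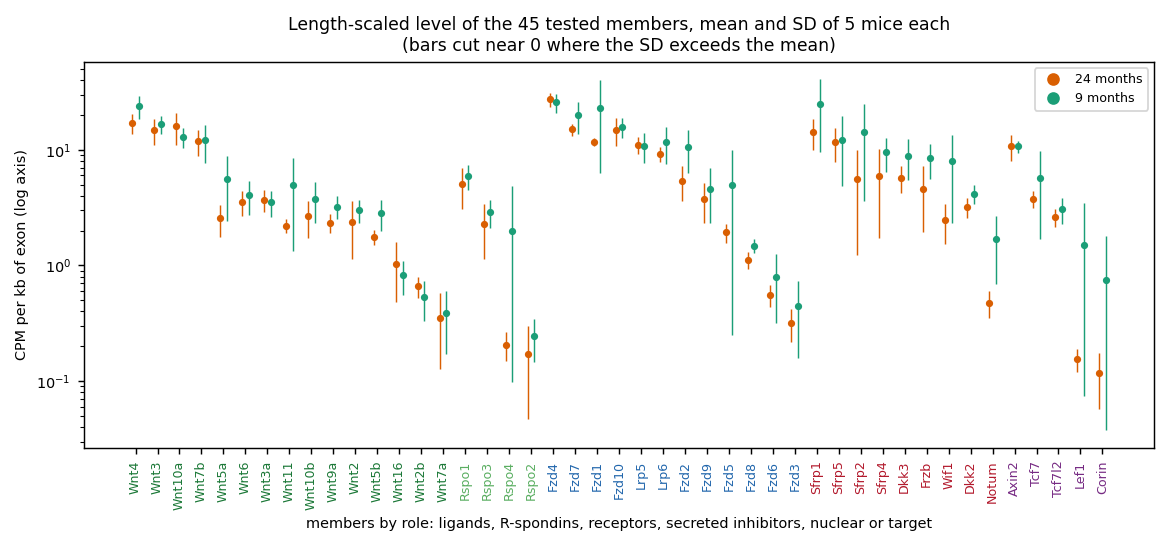
Length-scaled level (CPM per kb of exon, log axis) of the 45 tested Wnt pathway genes by role, mean and SD over 5 mice, 24 months (orange, left of each pair) and 9 months (green). Fzd4 is highest and Rspo2 is among the lowest, and the 9-month bars of Rspo4, Lef1, Corin, Fzd1 and Fzd5 are wide, with replicates 4 and 5 above the other mice.

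Over the 5 nuclear or target genes the median log2 fold change was -0.62. Lef1 and Corin were lower at an unadjusted p under 0.05, as were 6.45% of all genes. Without 9-month replicates 4 and 5 the median was -0.13 and 0 of the 5 were lower, against 4.14% of all genes. Lef1, the TCF/LEF factor of the hair-forming matrix cells and of the dermal papilla, lies on chromosome 3 (131110471 to 131224356, plus strand). It had 1.54, 1.78, 1.13, 1.19 and 1.11 CPM at 24 months and 1.59, 2.13, 1.65, 19.7 and 41.0 CPM at 9 months. The remaining 9-month libraries, replicates 1 to 3, lay within or just above the 24-month range. The fitted log2 fold change was -3.29 ± 0.92 (SE, edgeR adjusted p = 0.164; DESeq2 adjusted p = 0.0116), -2.22 without 9-month replicate 5 and -0.41 without replicates 4 and 5 (unadjusted p = 0.162). Corin, a protease made by the dermal papilla, had 0.610, 0.568, 0.476, 0.337 and 1.18 CPM at 24 months and 0.846, 0.499, 0.731, 4.47 and 13.7 CPM at 9 months. For this gene the log2 fold change of -2.68 ± 0.87 (SE, edgeR adjusted p = 0.209) was -0.13 without 9-month replicates 4 and 5.

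The 10 dermal papilla markers summed to 50.4 to 64.8 CPM at 24 months and 57.8 to 103 CPM at 9 months. The sum, in which Sox18 and Crabp1 weigh most, was highest in 9-month replicate 1, whereas the mean log2 level of the list was highest in 9-month replicate 5 (2.67, against 2.57 in replicate 1). Members of the list differed, since Hhip (2.42 and 8.04 CPM) and Alx4 (7.23 and 9.77 CPM) were highest in 9-month replicates 4 and 5. Shh, a defining hair matrix marker, was at 0 reads in 24-month replicate 2 and at 124 and 400 reads in 9-month replicates 4 and 5, against 2 to 13 reads in the other libraries. Tyr, a defining melanocyte marker, was at 0 reads in 24-month replicates 1, 3 and 4 and at 321 and 1134 reads in 9-month replicates 4 and 5.

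Tcf7 had 7.48, 9.60, 11.4, 9.36 and 11.4 CPM at 24 months and 6.42, 10.1, 7.68, 19.4 and 31.9 CPM at 9 months. Its log2 fold change of -0.62 ± 0.39 (SE, edgeR adjusted p = 0.549) was 0.28 without 9-month replicates 4 and 5, the opposite sign. Tcf7l2 had 27.0, 27.0, 18.7, 20.3 and 21.5 CPM at 24 months and 33.0, 23.8, 20.1, 22.3 and 35.0 CPM at 9 months, with a log2 fold change of -0.23 ± 0.19 (SE), or -0.41 without 24-month replicates 1 and 2. Axin2, a scaffold of the beta-catenin destruction complex and a widely used read-out of the pathway, had 45.1, 73.7, 48.4, 77.5 and 51.9 CPM at 24 months and 57.1, 69.9, 58.5, 50.3 and 59.5 CPM at 9 months. Its mean was 59.3 ± 15.1 CPM at 24 months and 59.1 ± 7.05 CPM at 9 months (SD, n = 5 each), and its log2 fold change was 0.01 ± 0.17 (SE, edgeR adjusted p = 0.993). Under the alternatives run it lay between -0.11 and 0.09. Axin2 was not among the genes that were high in 9-month replicates 4 and 5.

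**Figure D4:**
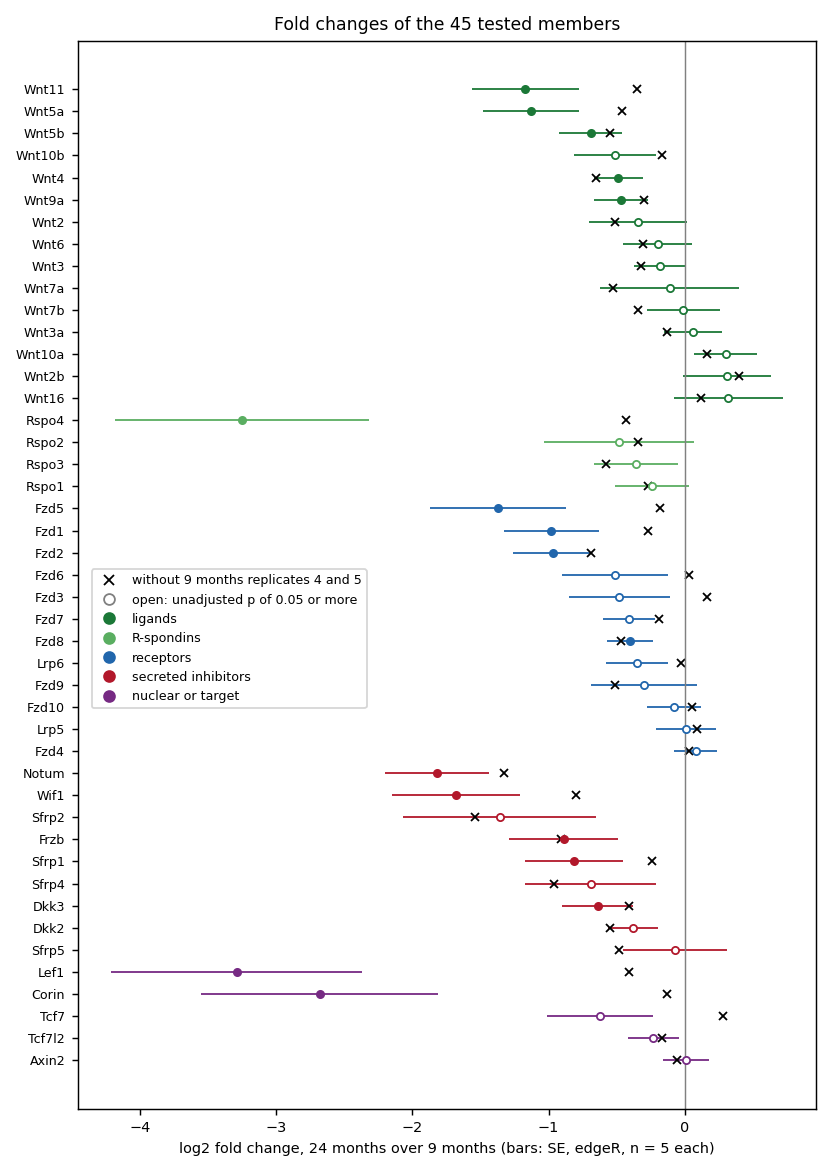
log2 fold change at 24 over 9 months (x axis) with its SE for each tested Wnt pathway gene, by role. Filled points have an unadjusted edgeR p under 0.05 and crosses are the values without 9-month replicates 4 and 5. The crosses of Lef1, Rspo4, Corin and Fzd5 lie between -0.43 and -0.13, where the points lie between -3.29 and -1.37, and the lowest crosses are those of Sfrp2 (-1.54), Notum (-1.33) and Sfrp4 (-0.96).

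Across the 45 genes, 9-month replicates 4 and 5 were the highest pair of the 10 libraries in 13 (28.9%), against 28% of the other pathway genes and 8.86% of all genes tested. Of the 17 genes lower at an unadjusted p under 0.05, 10 had this order. The pair 24-month replicates 1 and 2 was the lowest in 14 of the 45 (31.1%), against 13.3% of the other pathway genes and 5.99% of all genes. These 14 were Wnt2, Wnt5a, Wnt5b, Wnt9a, Wnt10b, Rspo1, Rspo2, Rspo3, Sfrp2, Sfrp4, Frzb, Dkk2, Wif1 and Notum.

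Promoter sequence was read for 31 of the genes from RefSeq (GRCm38.p6). Each of their 39 windows held 250 bases before and 50 after a start. The core that TCF/LEF factors bind, searched as CTTTGAT or CTTTGAA on either strand, was in 3 of the 39 windows (7.69%), against 8.65% of all 32851 promoters. The 3 belonged to Wnt11, Wnt5b and Dkk1. The 250 bases before the start are printed 5′ to 3′ on the gene's strand, with the core in capitals, for the first 2 of these, which were lower at an unadjusted p, and for 3 of the genes DESeq2 called lower, whose windows held no match. Wnt11 has 2 windows in the table and Wnt5b has 3, and only 1 of each holds the core. The Wnt11 window shown is chr7:98834862-98835111 (plus strand, core 51 bases before the start, read as its reverse complement), and the Wnt5b window shown is chr6:119449387-119449636 (minus strand, core 71 bases before the start). This Wnt5b window belongs to a start inside the annotated gene. The window at the annotated 5′ end of Wnt5b, chr6:119544348-119544597, holds no core. Lef1 has 4 windows, none with the core, of which the first is shown. Those shown for Lef1, Rspo4 and Wif1 are chr3:131110047-131110296, chr2:151842677-151842926 and chr10:121033754-121034003, all on the plus strand.
Wnt11: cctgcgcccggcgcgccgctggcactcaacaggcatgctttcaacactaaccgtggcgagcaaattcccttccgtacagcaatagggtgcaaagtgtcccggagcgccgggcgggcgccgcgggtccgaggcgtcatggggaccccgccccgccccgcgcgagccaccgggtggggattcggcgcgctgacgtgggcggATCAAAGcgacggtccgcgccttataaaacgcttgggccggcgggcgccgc
Wnt5b: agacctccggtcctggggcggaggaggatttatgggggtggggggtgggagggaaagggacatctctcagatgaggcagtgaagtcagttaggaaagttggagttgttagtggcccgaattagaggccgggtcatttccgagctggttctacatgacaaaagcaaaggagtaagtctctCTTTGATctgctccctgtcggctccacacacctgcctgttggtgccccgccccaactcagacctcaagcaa
Lef1: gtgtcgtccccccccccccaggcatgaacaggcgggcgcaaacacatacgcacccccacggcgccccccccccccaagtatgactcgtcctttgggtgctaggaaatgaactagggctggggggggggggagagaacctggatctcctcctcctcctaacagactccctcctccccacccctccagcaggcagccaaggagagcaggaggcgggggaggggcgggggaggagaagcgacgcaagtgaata
Rspo4: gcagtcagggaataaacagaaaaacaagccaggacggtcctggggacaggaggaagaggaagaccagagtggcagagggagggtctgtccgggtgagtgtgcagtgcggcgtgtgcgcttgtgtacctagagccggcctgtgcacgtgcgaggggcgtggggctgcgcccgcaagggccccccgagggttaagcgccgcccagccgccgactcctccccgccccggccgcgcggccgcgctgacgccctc
Wif1: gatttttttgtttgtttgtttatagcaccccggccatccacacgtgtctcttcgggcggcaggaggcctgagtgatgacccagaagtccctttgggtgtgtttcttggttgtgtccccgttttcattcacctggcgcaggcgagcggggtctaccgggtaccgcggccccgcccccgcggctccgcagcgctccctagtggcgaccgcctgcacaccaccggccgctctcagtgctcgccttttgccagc
A match is only these letters in this window, and the absence of one says nothing of binding elsewhere.

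Other genes of the pathway, 81 in 6 lists, were read from the same fit. Of these, 75 were tested, 62 had a negative log2 fold change, and the median was -0.20. At an unadjusted p under 0.05, 11 (14.7%, against 6.45% of all genes) were lower and 1 was higher (6.62% of all genes). None passed the edgeR adjustment. With replicates 4 and 5 at 9 months left out, 49 were negative, 5 were lower (6.67%, against 4.14% of all genes) and the median was -0.12. Without 24-month replicates 1 and 2, 55 were negative, 4 were lower (5.33%, against 3.62% of all genes) and the median was -0.14. Nkd1, an inhibitor of Dishevelled and itself a Wnt target, had 5.01, 5.08, 7.59, 10.1 and 7.50 CPM at 24 months and 11.6, 11.8, 15.2, 15.8 and 22.0 CPM at 9 months. The ages did not overlap, and the log2 fold change was -1.11 ± 0.25 (SE, edgeR adjusted p = 0.147), -0.87 without 9-month replicates 4 and 5 and -0.86 without 24-month replicates 1 and 2. Its relative Nkd2 had -1.02 and Ctnnb1, which encodes beta-catenin, -0.51, and both were nearer 0 without 9-month replicates 4 and 5 (-0.31 and -0.19).

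Among the membrane genes Lgr5, a receptor for R-spondins and a marker of follicle stem cells, had a log2 fold change of -1.13 ± 0.37 (SE, edgeR adjusted p = 0.216), Ror2, a receptor of Wnt5a, -1.23 and Lgr4 -0.57. With the 9-month pair left out, the values were -0.46, -0.22 and -0.20. Of the target genes Bambi had 4.85, 3.89, 4.58, 4.95 and 5.77 CPM at 24 months and 10.4, 6.78, 7.55, 35.5 and 77.0 CPM at 9 months, with no overlap. Its log2 fold change was -2.51 ± 0.64 (SE, edgeR adjusted p = 0.163). It was -0.78 without 9-month replicates 4 and 5 (edgeR unadjusted p = 0.00464) and -2.43 without 24-month replicates 1 and 2 (edgeR unadjusted p = 0.025). Msx2, also a hair matrix gene, had -3.21 with all libraries and -0.53 without 9-month replicates 4 and 5 (edgeR unadjusted p = 0.107). Myc, a transcription factor, was the only one of the 75 that was higher at an unadjusted p under 0.05. It had 45.9, 54.3, 103, 44.8 and 105 CPM at 24 months and 44.6, 32.5, 32.1, 38.6 and 45 CPM at 9 months. For this gene the log2 fold change was 0.87 ± 0.26 (SE, edgeR adjusted p = 0.181). It was 0.95 without 9-month replicates 4 and 5 (edgeR unadjusted p = 0.0166) and 1.13 without 24-month replicates 1 and 2 (edgeR unadjusted p = 0.00183). Sostdc1, a secreted inhibitor, had -0.58 ± 0.24 (edgeR adjusted p = 0.313) and Prickle1, of the planar polarity branch, -0.73 ± 0.23 (edgeR adjusted p = 0.189; SE in both). Without 9-month replicates 4 and 5 they had -0.65 and -0.43 (edgeR unadjusted p = 0.0441 and 0.0454). Without 24-month replicates 1 and 2 they had -0.56 and -0.75 (edgeR unadjusted p = 0.0917 and 0.0272). No gene of the nuclear factor list had an unadjusted p under 0.05.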

How the data were processed

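RNA-seq libraries were made with an Illumina mRNA kit, per the labels' protocols. The tools CASAVA 1.7, STAR 2.4.1d and featureCounts 1.4.6-p4 and the build GRCm38 are listed, per the submitters' processing notes. The authors deposited raw read counts per Ensembl gene for 47729 genes, and symbols from GENCODE vM21 matched 47224. The deposited RPKM values were not used.

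edgeR 4.0.16 in R 4.3.3 (filterByExpr, TMM factors, robust quasi-likelihood F test, Benjamini-Hochberg over 17668 genes) gave the main result. SE is the fold change divided by the root of F. limma 3.58.1 (voom) and DESeq2 1.42.0 were alternatives, with RLE factors, no filter and libraries left out. The edgeR steps were tested on simulated data. Libraries of 1 age differed beyond counting noise, and p-values weigh the age difference only against the spread between these mice. CPM per kb used merged exon length. The genes and lists, and the library pairs left out, were chosen with earlier results of these data known. Library-level values were printed for genes with an unadjusted p under 0.05 or no overlap, the 3 most abundant per role, and Axin2, Lef1, Corin and Wnt10b. Those of Rspo2, which met none of these, were printed as well. Up to 3 genes with the smallest p were named per other list. The DESeq2 fits without library pairs were added after seeing the data.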

Additional observations from a re-analysis of the deposited data

Results flagged for a closer look

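In 4 of the 90 groups of 5 mice examined (45 genes at each of the 2 ages), 1 mouse lay far from the others of its age. Distance was judged on log levels, gene by gene. Chance alone would give about 4.5 such groups, so this count is no larger than that. The count does not cover a mouse that stood apart in many genes at once. For example, 9-month replicate 5 was the highest of the 10 libraries in 46.7% of the 45 genes, against 22.3% of all genes tested. Sfrp1 was low in 24-month replicate 1, at 31.0 CPM, against 59.5 to 76.0 CPM in the other 24-month mice. Wnt2b was low in 9-month replicate 1, at 0.776 CPM, against 2.33 to 2.99 CPM in the other 9-month mice. Lrp5 was low in that same mouse, at 53.5 CPM, against 106 to 131 CPM. Sfrp4 was low in 9-month replicate 5, at 17.6 CPM, against 37.8 to 49.7 CPM.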

How the results depend on the processing

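No paired analysis was possible because the labels give no number shared between mice of the 2 ages. Of the 45 genes, 29 kept the sign of their log2 fold change under all 16 alternative settings. DESeq2 called 429 genes higher and 478 lower, 6 of them among the 45; the cause of its difference from edgeR was not tested. With DESeq2 and without 9-month replicates 4 and 5, 81 genes were higher and 45 lower, and without 24-month replicates 1 and 2, 168 and 196, with 1 of the 45 lower each time. With edgeR, the unfiltered table gave 1 gene higher, and leaving out 9-month replicates 4 and 5 gave 1 lower. Leaving out 1 library at a time gave 0 to 8 genes higher, with 8 without 24-month replicate 4. At an unadjusted p under 0.05, 12 to 18 of the 45 were then lower and 0 to 1 higher, the 1 without 24-month replicate 1. Leaving out 9-month replicates 4 and 5 gave 5 lower, and leaving out 24-month replicates 1 and 2 gave 7 lower and 1 higher.

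Signs turned, for causes not tested, without 9-month replicates 4 and 5 for Tcf7 (0.28), Fzd3 (0.16), Fzd10 (0.05), Fzd6 (0.03), Wnt3a (-0.13) and Axin2 (-0.06). Without 24-month replicates 1 and 2 they turned for Wnt2 (0.13), Wnt7b (0.11), Rspo2 (0.10), Rspo1 (0.07) and Wnt16 (-0.03). Under voom they turned for Sfrp5 (0.10), Wnt7b (0.04) and Axin2 (-0.02), under DESeq2 for Axin2 (-0.01) and Lrp5 (0), with no filter for Axin2 (-0.01) and Lrp5 (-0.01), and with RLE factors for Axin2 (0). Leaving out 1 library at a time, ranges crossed 0 for Wnt3a (-0.04 to 0.22), Wnt6 (-0.29 to 0.01), Wnt7a (-0.55 to 0.19), Wnt7b (-0.18 to 0.12), Fzd4 (-0.01 to 0.17), Fzd10 (-0.21 to 0.01), Lrp5 (-0.16 to 0.09), Sfrp5 (-0.25 to 0.29) and Axin2 (-0.11 to 0.09). Depth limits Dkk1 and Dkk4, which had at most 1 read in a library.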
